A study of Sus scrofa with 24 samples.

Results

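The genes described here are those of the liver connective tissue: collagens, laminins and other matrix proteins, the enzymes that cut and cross-link them, and markers of the hepatic stellate cell and of related stromal cells. They were taken from a list of 52 gene symbols, chosen by function but with earlier results of these data known. Of these, 33 were found among the 13463 genes of the deposited tables, and all 33 passed the filter on low counts that left 8279 genes for the comparison of treatments. The other 19, not analysed here, were COL1A1, COL3A1, COL4A1, COL4A2, COL5A2, COL6A1, COL6A2, COL6A3, COL18A1, FN1, SPARC, POSTN, TIMP2, LOXL2, ACTA2, MYL9, VIM, DES and NID1. The set described below is therefore without COL1A1 and COL3A1, without the 3 type VI collagens and without 4 of its 5 contractile and cytoskeletal genes.

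Stellate cells lie between the hepatocytes and the sinusoidal endothelium, where they store vitamin A in the resting state and, once activated, become contractile and secrete collagen. Transforming growth factor beta is the best known signal for this change. Portal fibroblasts and vascular smooth muscle cells add to the same matrix. Matrix proteins are secreted, cross-linked by lysyl oxidases and degraded by metalloproteinases, which the TIMP proteins inhibit. Androgens act on the liver through the androgen receptor, and the deposited libraries allow the stromal genes to be compared between steroid-treated and untreated animals.

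Liver RNA was sequenced from 24 grower pigs, hybrids of Large White, Landrace and Duroc, and each library carried its own animal number. Sustanon, a mixture of testosterone esters, was injected intramuscularly at 4 mg/kg b.w. in 8 animals (3 castrated boars, 3 sows and 2 uncastrated boars). Myodin, a nandrolone ester, was injected at 5 mg/kg b.w. in 8 animals (2 castrated boars, 3 sows and 3 uncastrated boars). A further 8 animals stayed untreated (3 castrated boars, 3 sows and 2 uncastrated boars). By the study's methods each group had its own pens and the controls a room of their own, so treatment cannot be told apart from pen and room in any comparison of treatments. The labels give no ages, and by the study's methods the pigs were assigned to groups after weaning and injected repeatedly.

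Total counts were between 9267780 and 14017276 per library, with a median of 9807966 in untreated, 10857171 in Sustanon and 11139846.5 in Myodin libraries. The Y-linked gene KDM5D did not follow the labelled sex in 3 untreated libraries. It had 36 to 82 reads in the libraries labelled as boars, castrated or not, other than untreated castrated boar 15, which had 0 reads. It had 0 reads in the libraries labelled as sows, other than untreated sow 16 with 35 reads and untreated sow 18 with 95 reads. Labels were kept as given, treatments were compared over all animal types together, and the calls with Sustanon that rest on libraries 15, 16 and 18 are also given without them.

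The level of each gene is given in TPM, a scale that takes gene length into account. Averaged over the 24 libraries, 6 of the 33 genes had more than 50 TPM, 15 had between 10 and 50 TPM and 12 had less than 10 TPM. The most abundant were BGN, the proteoglycan biglycan, at 111 ± 26.7 TPM (mean ± SD over 24 libraries), FBLN1, the matrix glycoprotein fibulin 1, at 104.5 TPM, and TAGLN, the actin-binding protein transgelin, at 93.1 TPM. They were followed by TGFBI, a matrix protein induced by TGF-beta, at 74.8 TPM, the metalloproteinase inhibitor TIMP3 at 60.5 TPM, and the membrane-bound metalloproteinase MMP14 at 50.5 TPM.

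Between 10 and 50 TPM were CCN2 (48.4 TPM), CCN1 (47.0 TPM), COL1A2 (43.6 TPM), DCN (41.4 TPM), FBLN5 (32.2 TPM), THBS1 (29.9 TPM), HSPG2 (29.7 TPM), PDGFRB (23.2 TPM), COL14A1 (18.1 TPM), TGFB1 (16.4 TPM), THY1 (16.3 TPM), LAMB1 (14.6 TPM), MMP2 (12.2 TPM), TIMP1 (10.5 TPM) and RELN (10.04 TPM). Below 10 TPM were LAMC1 (9.38 TPM), COL5A1 (5.95 TPM), RGS5 (5.22 TPM), PDGFRA (5.04 TPM), LRAT (3.31 TPM), LAMA4 (2.76 TPM), LOX (2.65 TPM), FBN1 (2.33 TPM), LUM (2.29 TPM), ELN (2.25 TPM), LOXL1 (2.19 TPM) and COL15A1 (2.18 TPM). The least sampled gene had a median of 31.5 reads per library, and the lowest count of any of the 33 genes in any library was 5 reads, for ELN. The spread over libraries differed widely between genes: the highest level was 1.68 times the lowest for TGFB1, 2.08 times for HSPG2, 12.8 times for CCN2, 15.5 times for ELN, 17.1 times for THBS1 and 19.2 times for LUM.

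Sustanon against untreated asked whether testosterone esters changed the stromal genes. CCN1 and TIMP3 rose, LAMB1 fell, and the other 30 genes did not pass the test, among them COL1A2 and COL5A1 and every measured marker of the stellate cell. With edgeR's quasi-likelihood test, 3 of 33 genes (9.09%) had a Benjamini-Hochberg adjusted p under 0.05, against 5.07% of the 8279 genes tested. Of the 33, 2 were higher, against 3.39% of all genes, and 1 was lower, against 1.68%. The 2 higher genes also had log2 fold changes of at least 1, while 1.56% of all genes passed with a change of that size in either direction. Without adjustment, 5 of 33 genes (15.2%) had a p under 0.05, against 19.6% of all genes. In castrated boars and sows alone, the 3 genes were called again and 10 of 33 (30.3%) had an unadjusted p under 0.05, against 20.4% of 8307 genes. The same 3 genes were called by DESeq2 and by limma on log2(TPM + 1), against 6.72% of the 9486 genes with an adjusted p and 3.99% of 8279 genes. By limma without a filter LAMB1 was lost (adjusted p = 0.0692). Without untreated castrated boar 15, only CCN1 of the 33 passed edgeR's test, against 3.27% of all genes. Without untreated 15, 16 and 18, none of the 33 and none of all genes passed it. The adjusted p was then 0.116 for CCN1, 0.137 for TIMP3 and 0.147 for LAMB1. The median log2 fold change was 0.15 over the 33 genes and -0.01 over all genes tested. Of the 33, 24 were above 0, against 48.1% of all genes. In liver tissue, fewer cells of a type and less RNA per cell cannot be told apart, here or in any result below.

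**Figure D1:**
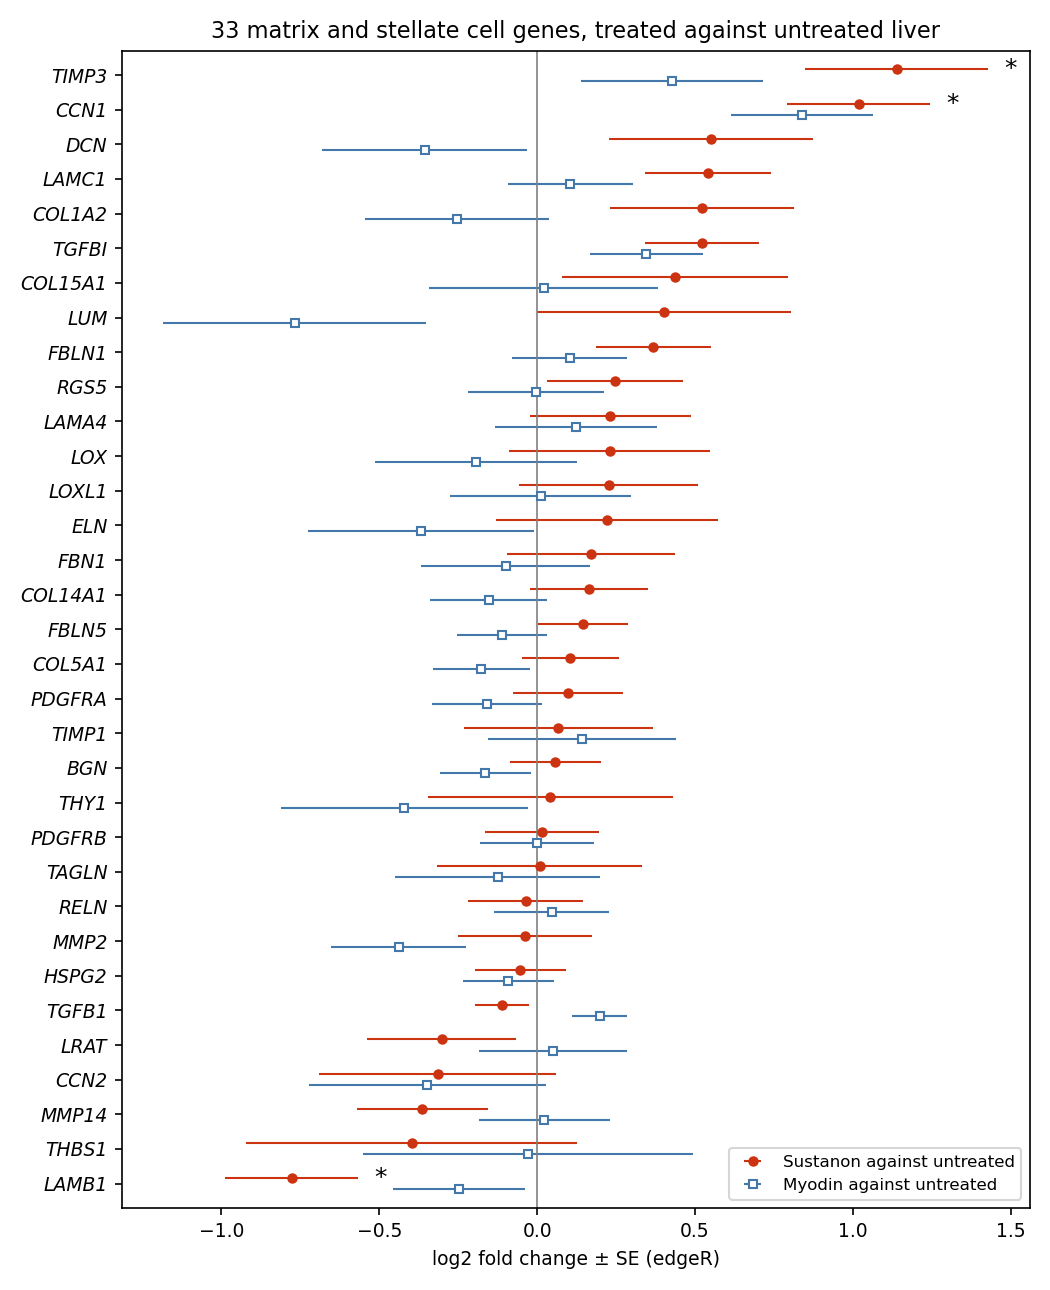
Log2 fold change with its standard error for the 33 genes (vertical axis, ordered by the Sustanon value) in Sustanon-treated (filled circles) and Myodin-treated (open squares) against untreated liver, both against the same 8 untreated libraries; asterisks mark the 3 genes with an adjusted p under 0.05. TIMP3 (1.14), CCN1 (1.02) and LAMB1 (-0.78) stand at the ends of the Sustanon order, and no Myodin value passed the test.

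CCN1, a secreted matricellular protein that binds integrins, lies on chromosome 4 from 130392404 to 130395179 of Sscrofa11.1. Its levels were 15.1, 30.6 and 41.3 TPM (lowest, median and highest) in the 8 untreated libraries and 43.1, 57.5 and 79.3 TPM in the 8 Sustanon libraries. All 8 Sustanon libraries were above every untreated library, and the ranges did not overlap. CCN1 rose by 1.02 on the log2 scale (SE 0.23, adjusted p = 0.0129), from 29.6 ± 7.96 to 60.0 ± 13.9 TPM (SD, n = 8 each, with the adjusted p from edgeR). The difference in mean log2 CPM, the depth-normalised count on the log2 scale, was 1.24 in castrated boars, 0.99 in sows and 0.78 in uncastrated boars, and in each of the 3 animal types the Sustanon libraries lay above the untreated ones. In the RefSeq annotation CCN1 lies inside the span of ZNHIT6, a gene with 168 to 385 reads per library, whose own log2 fold change was -0.01 (adjusted p = 0.983).

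The other 2 genes of the signal group did not pass the test. CCN2, the related connective tissue growth factor, had 25.2, 36.7 and 195.9 TPM in untreated and 26.8, 43.7 and 73.4 TPM in Sustanon libraries. The highest of these, untreated sow 17, stood far above every other library, and the remaining ranges overlapped. The log2 fold change of CCN2 was -0.32 (SE 0.38, adjusted p = 0.715). TGFB1, the TGF-beta ligand itself, had 12.4, 16.4 and 18.8 TPM in untreated and 12.5, 14.7 and 18.95 TPM in Sustanon libraries, which overlapped almost fully. Its log2 fold change was -0.11, with a 95% interval from -0.29 to 0.07 (adjusted p = 0.537).

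TIMP3, a metalloproteinase inhibitor that stays bound to the matrix, lies on chromosome 5 from 12185816 to 12242599. It had 19.5, 40.1 and 68.4 TPM in untreated and 46.0, 90.6 and 131 TPM in Sustanon libraries. Of the 8 Sustanon libraries, 6 were above every untreated library, while Sustanon castrated boar 3 (46.0 TPM) and Sustanon sow 4 (54.0 TPM) lay within the untreated range. TIMP3 rose by 1.14 on the log2 scale (SE 0.29, adjusted p = 0.0237), from 40.5 ± 19.03 to 88.3 ± 28.4 TPM (SD, n = 8 each). The difference in mean log2 CPM was 1.45 in castrated boars, 1.12 in sows and 0.93 in uncastrated boars. TIMP3 lies inside the span of SYN3, which had 3 to 25 reads per library.

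The other proteases, inhibitors and cross-linking enzymes did not pass the test. MMP14 had 42.9, 54.2 and 69.6 TPM in untreated and 27.4, 35.7 and 69.1 TPM in Sustanon libraries. Of the Sustanon libraries, 6 were below every untreated one and the other 2 overlapped with them, and the log2 fold change was -0.36 (SE 0.21, adjusted p = 0.354). The gelatinase MMP2 (log2 fold change -0.04), the soluble inhibitor TIMP1 (0.07) and the lysyl oxidases LOX (0.23) and LOXL1 (0.23) had adjusted p of 0.729 to 0.954. TIMP1 and LOX also lie inside the spans of other genes.

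LAMB1, the beta chain of laminins of the basement membrane, lies on chromosome 9 from 107670120 to 107747242 and was the one gene of the set that fell. It had 14.6, 17.96 and 23.5 TPM in untreated and 6.29, 9.48 and 16.8 TPM in Sustanon libraries. Of the 8 Sustanon libraries, 7 were below every untreated library, and the exception was castrated boar 3. LAMB1 fell by 0.78 on the log2 scale (SE 0.21, adjusted p = 0.0314), from 18.02 ± 2.84 to 10.7 ± 3.31 TPM (SD, n = 8 each). The difference in mean log2 CPM was -0.48 in castrated boars, -0.84 in sows and -1.23 in uncastrated boars, and the ranges separated in sows and in uncastrated boars but not in castrated boars. A RefSeq long non-coding RNA overlaps the gene, and how reads of both were counted is not given in the sources used here.

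LAMC1, the gamma chain with which the LAMB1 product assembles, had a value of the opposite sign. It had 4.35, 8.38 and 12.4 TPM in untreated and 7.29, 13.1 and 14.97 TPM in Sustanon libraries. Of the Sustanon libraries, 5 were above every untreated one, with a log2 fold change of 0.54 (SE 0.20) and an adjusted p of 0.116. Their 95% intervals ran from 0.13 to 0.95 for LAMC1 and from -1.22 to -0.34 for LAMB1. The other basement membrane genes were LAMA4, a laminin alpha chain (log2 fold change 0.23), COL15A1, a collagen of vascular basement membranes (0.44), and HSPG2, the heparan sulfate proteoglycan perlecan (-0.05), with adjusted p of 0.692, 0.564 and 0.884.

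All 3 collagens of the fibrillar group had values above 0, but none passed the test. COL1A2, a chain of type I collagen, had 15.5, 43.0 and 75.8 TPM in untreated and 29.2, 46.3 and 103 TPM in Sustanon libraries. The ranges overlapped, and the log2 fold change was 0.52 with a 95% interval from -0.08 to 1.13 (adjusted p = 0.341). The untreated libraries were split: the 3 labelled castrated boars had 24.3, 15.5 and 21.2 TPM, and the other 5 had 42.7 to 75.8 TPM. COL5A1, which regulates fibril diameter, had a log2 fold change of 0.11 (interval -0.21 to 0.43, adjusted p = 0.771), and COL14A1, a fibril-associated collagen, of 0.16 (interval -0.22 to 0.55, adjusted p = 0.701).

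The small leucine-rich proteoglycans bind collagen fibrils. DCN, decorin, had 19.3, 30.1 and 82.0 TPM in untreated and 32.7, 49.6 and 91.0 TPM in Sustanon libraries. The ranges overlapped, although 4 untreated libraries were below every Sustanon library, and the log2 fold change was 0.55 (SE 0.32, adjusted p = 0.371). LUM, lumican, had 1.28, 2.30 and 4.25 TPM in untreated and 1.18, 2.29 and 9.02 TPM in Sustanon libraries, with a log2 fold change of 0.40 (SE 0.40, adjusted p = 0.657). The highest LUM level was that of Sustanon castrated boar 2, which was also the highest of all libraries for DCN. BGN had 92.4, 103.7 and 162.3 TPM in untreated and 84.1, 113.6 and 171.6 TPM in Sustanon libraries, with a log2 fold change of 0.06 (interval -0.24 to 0.36, adjusted p = 0.878).

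Among elastic fibre proteins and glycoproteins, TGFBI had 42.3, 59.2 and 94.5 TPM in untreated and 45.3, 92.4 and 123 TPM in Sustanon libraries. The ranges overlapped, and its log2 fold change of 0.52 (SE 0.18) did not pass the test (adjusted p = 0.0911). FBLN1 had 63.4, 92.4 and 132.6 TPM in untreated and 80.3, 120.1 and 156.0 TPM in Sustanon libraries, with a log2 fold change of 0.37 (SE 0.18, adjusted p = 0.265). THBS1, thrombospondin 1, which can activate latent TGF-beta, had 11.4, 19.6 and 90.8 TPM in untreated and 8.75, 21.4 and 47.7 TPM in Sustanon libraries. The ranges overlapped, and the log2 fold change of -0.40 had a 95% interval from -1.49 to 0.69 (adjusted p = 0.746). With 1 library left out the THBS1 value was -0.57 to -0.02. ELN, elastin (0.22), FBN1, the microfibril protein fibrillin 1 (0.17), and FBLN5, which assembles elastic fibres (0.15), had adjusted p of 0.645 to 0.797.

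The 6 genes that mark stellate cells, pericytes and fibroblasts had log2 fold changes between -0.30 and 0.25, with a median of 0.03 and none past the test. LRAT, which esterifies vitamin A for storage, had a log2 fold change of -0.30 (interval -0.79 to 0.19, adjusted p = 0.537). RELN, the secreted protein reelin, a marker of stellate cells, had -0.04 (interval -0.41 to 0.34). The receptors PDGFRB (0.02, interval -0.36 to 0.39) and PDGFRA (0.10, interval -0.26 to 0.46), the pericyte gene RGS5 (0.25) and the fibroblast surface protein THY1 (0.04) had adjusted p of 0.590 to 0.979. TAGLN, the one contractile gene measured, had 33.3, 73.7 and 177.2 TPM in untreated and 54.6, 93.5 and 152.3 TPM in Sustanon libraries, with a log2 fold change of 0.01 (interval -0.67 to 0.68, adjusted p = 0.995).

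**Figure D2:**
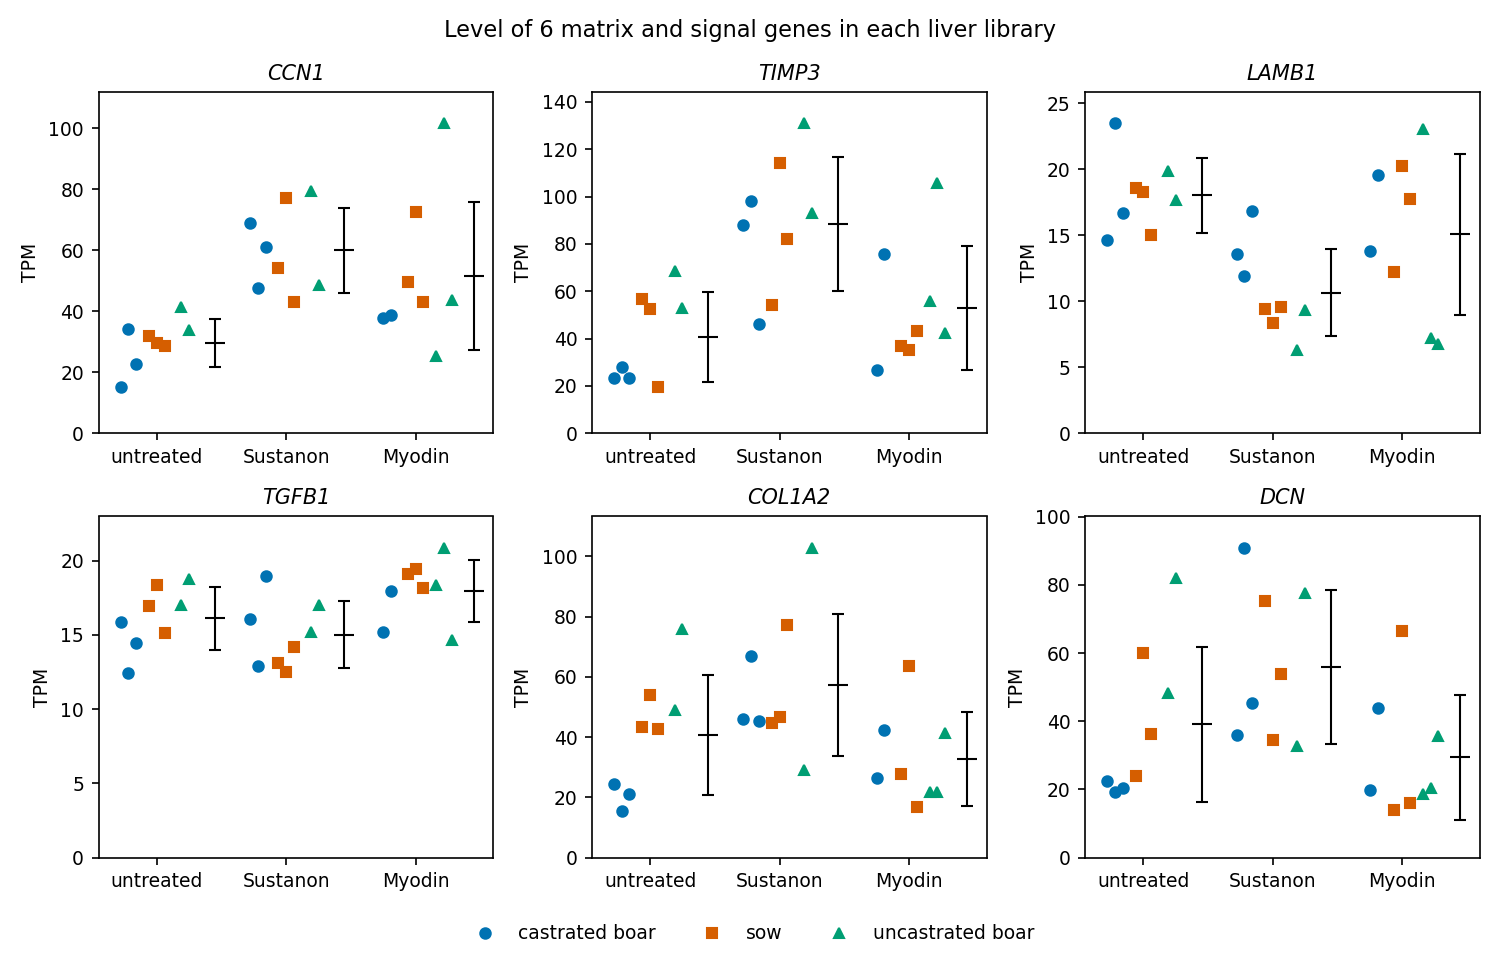
Level (vertical axis, TPM from 0) of CCN1, TIMP3, LAMB1, TGFB1, COL1A2 and DCN in each of the 24 libraries by treatment (horizontal axis), with symbols for the labelled animal type and the mean ± SD of 8 libraries in black. The Sustanon libraries of CCN1 (43.1 to 79.3 TPM) do not overlap with the untreated ones (15.1 to 41.3 TPM), whereas those of COL1A2 and DCN do.

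How far these calls rest on single libraries differed. Leaving out each of the 24 libraries in turn, CCN1 passed the test in 24 of 24 fits, with an adjusted p from 0.00275 to 0.0349. TIMP3 passed in 20 of 24 fits and was lost (adjusted p up to 0.0593) without Sustanon sow 5, Sustanon uncastrated boar 19, or untreated castrated boar 13 or 15. LAMB1 passed in 16 of 24 fits and was lost (adjusted p up to 0.0735) without Sustanon sow 4, 5 or 6, Sustanon uncastrated boar 19 or 20, untreated castrated boar 14 or 15, or untreated sow 16. TGFBI passed in 2 of 24 fits, without Sustanon castrated boar 3 (adjusted p = 0.0435) or Sustanon sow 4 (adjusted p = 0.0385). Without untreated library 15, only CCN1 of the 33 genes passed, and 272 of all genes (3.27%) did in place of 420. Without the 3 untreated libraries whose KDM5D counts went against the label, none of the 33 genes and 0 of 8434 genes passed by edgeR, where 4 of the 33 and 1199 of all genes had an unadjusted p under 0.05. The log2 fold changes were then 1.01 for CCN1 (adjusted p = 0.116), 1.05 for TIMP3 (adjusted p = 0.137) and -0.79 for LAMB1 (adjusted p = 0.147).

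Myodin against untreated asked the same of the nandrolone ester, with the same 8 untreated libraries. None of the 33 genes passed edgeR's test, and neither did any of the 8279 genes tested (0%). Without adjustment, 2 of 33 genes (6.06%), CCN1 and TGFB1, had a p under 0.05, against 7.21% of all genes. DESeq2 called 0 of 33 genes, against 0.00851% of all genes, with 3 (9.09%) at an unadjusted p under 0.05, against 5.99%. The median log2 fold change was -0.09 over the 33 genes and 0.00 over all genes. Of the 33, 14 were above 0, against 51.2% of all genes.

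CCN1 had the largest positive value of the set with Myodin. Its Myodin libraries had 25.5, 43.3 and 101.7 TPM, and 5 of 8 were above every untreated library. Castrated boars 8 (37.7 TPM) and 9 (38.7 TPM) and uncastrated boar 22 (25.5 TPM) lay within the untreated range. On the log2 CPM scale, 7 of 8 were above every untreated library, castrated boars 8 and 9 among them. The log2 fold change was 0.84 with a 95% interval from 0.37 to 1.31, and the adjusted p was 0.346. TIMP3 had 26.6, 42.7 and 105.9 TPM and TGFBI 49.4, 76.0 and 95.3 TPM in Myodin libraries, both overlapping with the untreated range. Their log2 fold changes were 0.43 (SE 0.29, adjusted p = 0.794) and 0.35 (SE 0.18, adjusted p = 0.710). With 1 library left out the TIMP3 value was 0.20 to 0.56. LAMB1 had 6.75, 15.8 and 23.1 TPM with Myodin. Uncastrated boars 23 (7.22 TPM) and 24 (6.75 TPM) were in the range of Sustanon libraries, while uncastrated boar 22 had 23.1 TPM, and the log2 fold change was -0.25 (SE 0.21, adjusted p = 0.849).

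The largest negative values with Myodin belonged to LUM, MMP2 and THY1. LUM had 0.47, 0.97 and 3.71 TPM, with 5 of 8 Myodin libraries below every untreated one, and a log2 fold change of -0.77 (SE 0.42, adjusted p = 0.726). MMP2 had 4.78, 9.18 and 18.9 TPM against 8.24, 12.8 and 21.6 TPM in untreated libraries, with overlapping ranges and a log2 fold change of -0.44 (SE 0.21, adjusted p = 0.687). THY1 had 5.08, 6.83 and 31.3 TPM against 5.62, 17.9 and 32.0 TPM, with a log2 fold change of -0.42 (SE 0.39, adjusted p = 0.883), or -0.76 to -0.25 with 1 library left out. Of the Myodin libraries, 4 of 8 lay below every untreated one, and the other 4 lay within the untreated range. Markers of other cells had values above 0 with Myodin for 5 of 6 macrophage genes (median 0.29, 3 at an unadjusted p under 0.05) and 5 of 5 leukocyte genes (median 0.33), and for 0 of 4 bile duct (median -0.46), 0 of 4 smooth muscle (median -0.48, 2 at an unadjusted p under 0.05) and 1 of 5 hepatocyte genes (median -0.25), none past the test. The leukocyte, bile duct and hepatocyte lists each held 1 gene at an unadjusted p under 0.05. Endothelial markers were above 0 for 4 of 6 (median 0.09) and fat cell markers for 1 of 2, with 0 at an unadjusted p under 0.05. Of the red blood cell markers, 0 of 4 were above 0 (median -0.65, 1 at an unadjusted p under 0.05 and none past the test). The bile duct markers summed to 43.1 to 73.2 TPM in untreated and 35.6 to 54.05 TPM in Myodin libraries, and the leukocyte markers to 99.5 to 174 TPM and 132 to 184 TPM. Their part in the stromal values was not tested.

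Sustanon and Myodin were then compared directly, with the dose and the ester differing between them. None of 33 genes passed edgeR's test, against 0.664% of all genes. Without adjustment, 7 of 33 genes (21.2%) had a p under 0.05, against 18.1% of all genes. DESeq2 called 1 of 33 (TGFB1), against 2.78% of the 9938 genes to which it gave an adjusted p. The median log2 fold change was 0.25 over the 33 genes and -0.005 over all genes. Of the 33, 26 had higher values with Sustanon than with Myodin, against 49.0% of all genes. The 55 genes called among all genes were 21 higher and 34 lower with Sustanon, but 43 higher and 10 lower by limma on the deposited log2(TPM + 1) values.

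LUM, DCN and COL1A2 had the largest positive differences, and none of the 3 passed the test. LUM differed by 1.17 (SE 0.41, 95% interval 0.31 to 2.03, adjusted p = 0.143), or by 0.71 without Sustanon castrated boar 2 and by 0.76 by limma on log2(TPM + 1). DCN, with 14.04, 20.2 and 66.6 TPM in Myodin libraries, differed by 0.91 (SE 0.33, interval 0.23 to 1.58, adjusted p = 0.150), and 5 of 8 Myodin libraries lay below every Sustanon library. COL1A2, with 16.9, 27.1 and 63.7 TPM in Myodin libraries, differed by 0.77 (SE 0.29, interval 0.17 to 1.38, adjusted p = 0.168), and 5 of 8 lay below every Sustanon library. All 3 genes had overlapping ranges. TIMP3 differed by 0.71 (adjusted p = 0.190, or 0.0424 without Myodin uncastrated boar 23, the 1 of 24 such fits that passed), LAMC1 by 0.44 (adjusted p = 0.241) and CCN1 by 0.18 (interval -0.28 to 0.64, adjusted p = 0.703).

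The negative differences were led by LAMB1 at -0.53 (SE 0.21, interval -0.97 to -0.09, adjusted p = 0.184), MMP14 at -0.39 (SE 0.21, adjusted p = 0.331) and THBS1 at -0.37 (SE 0.52, adjusted p = 0.747). MMP14 had 24.5, 55.5 and 90.5 TPM and THBS1 7.59, 17.9 and 130.0 TPM in Myodin libraries, and both overlapped with Sustanon. The highest THBS1 level was that of Myodin castrated boar 9, which also had the highest TAGLN level, 199.9 TPM. TGFB1 had the smallest adjusted p of the set. It lies on chromosome 6 from 49332169 to 49348642 and had 14.6, 18.3 and 20.9 TPM in Myodin libraries. Its log2 difference was -0.31 (SE 0.09, interval -0.49 to -0.13), with an adjusted p of 0.0762 by edgeR and 0.0337 by DESeq2. With 1 library left out, TGFB1 passed by edgeR in 2 of 24 fits, with an adjusted p up to 0.153 in the others. The 2 were those without Sustanon castrated boar 1 (adjusted p = 0.0448) or 3 (adjusted p = 0.0291).

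Markers of other liver cells were counted in the same comparison. All 5 tested hepatocyte and all 4 tested bile duct markers had higher values with Sustanon than with Myodin, with median log2 differences of 0.40 and 0.32 and none past the test. In each of these lists, 2 markers had an unadjusted p under 0.05. Endothelial markers were higher for 2 of 6 (median -0.14, 2 at an unadjusted p under 0.05). Smooth muscle and red blood cell markers were higher for 3 of 4 each (medians 0.11 and 0.30), and fat cell markers for 0 of 2. The 1 tested mesothelial marker differed by 1.37 (unadjusted p under 0.05), and none of these passed the test. All 6 tested Kupffer cell and macrophage markers and all 5 tested leukocyte markers had lower values with Sustanon than with Myodin, with median log2 differences of -0.33 and -0.50. Of these, 3 macrophage markers and 1 leukocyte marker had an unadjusted p under 0.05. C1QC, a complement subunit made by macrophages, was lower by 0.59 on the log2 scale (from 591 ± 146 TPM with Myodin to 410 ± 55.3 TPM with Sustanon, SD, n = 8 each, edgeR adjusted p = 0.0399). NKG7, of cytotoxic lymphocytes, was at 12.9 ± 3.39 TPM against 21.97 ± 7.39 TPM, a log2 difference of -0.82 (SE 0.19, n = 8 each, edgeR adjusted p = 0.0399). Without untreated 15, 16 and 18, which share the estimate of the spread, both had an edgeR adjusted p of 0.0585. With the 2 groups alone it was 0.102 for C1QC and 0.0911 for NKG7, and with 1 library left out they passed in 13 and 14 of 24 fits. Over 11 other settings they passed in 6 and 5, and limma on log2(TPM + 1) gave an adjusted p of 0.0585 and 0.0704. The summed level of the 6 macrophage markers was 1046 to 1501 TPM in Sustanon, 1360 to 2277 TPM in Myodin and 1121 to 1465 TPM in untreated libraries. The part of these cells in the stromal values was not tested.

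Uncastrated boars against castrated boars, with treatment as a covariate, compared animals with and without testes (n = 7 and 8). None of 33 genes passed edgeR's test, against 1.92% of 8332 genes, and 5 of 33 (15.2%) had an unadjusted p under 0.05, against 17.9%. DESeq2 called 1 of 33 (THBS1), against 4.00% of the 9251 genes to which it gave an adjusted p. The median log2 fold change was 0.07 over the 33 genes and 0.02 over all genes. Markers of immune cells had higher values in uncastrated boars, with all 6 Kupffer cell and macrophage markers above 0 (median 0.27, 4 at an unadjusted p under 0.05) and all 5 leukocyte markers above 0 (median 0.38), none past the test. The macrophage markers summed to 1046 to 1410 TPM in castrated and 1389 to 2277 TPM in uncastrated boars, and the leukocyte markers to 120.6 to 163 TPM and 132 to 184 TPM. Their part in the stromal values was not tested. The 160 genes called among all genes were 71 higher and 89 lower in uncastrated boars, but 123 higher and 47 lower by limma on log2(TPM + 1).

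THBS1, on chromosome 1 from 131728781 to 131746098, had the largest difference. It had 11.4, 29.4 and 130.0 TPM in castrated boars and 7.59, 15.03 and 26.9 TPM in uncastrated boars, and 5 of the 8 castrated boars were above every uncastrated boar. The log2 fold change was -1.56 (SE 0.49, interval -2.59 to -0.54), with an adjusted p of 0.0944 by edgeR and 0.0459 by DESeq2. It was -0.85 without Myodin castrated boar 9, the library with 130.0 TPM, and -0.36 in the untreated animals alone. CCN2, with 25.2, 44.1 and 73.4 TPM in castrated and 15.4, 33.8 and 45.6 TPM in uncastrated boars, had a log2 fold change of -0.72 (SE 0.36, adjusted p = 0.294). TAGLN, with 33.3, 111.6 and 199.9 TPM against 54.6, 75.1 and 97.6 TPM, had -0.62 (SE 0.33, adjusted p = 0.331). With 1 library left out the TAGLN value was -0.78 to -0.34. Of the 4 tested smooth muscle markers, 3 were below 0 (median -0.32, 1 at an unadjusted p under 0.05 and none past the test), and their part was not tested.

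The largest positive values were those of TIMP3, FBLN1 and COL1A2. TIMP3 had 23.2, 36.9 and 98.1 TPM in castrated and 42.4, 68.4 and 131 TPM in uncastrated boars, with a log2 fold change of 0.69 (SE 0.27, adjusted p = 0.189). FBLN1 had 61.0, 83.3 and 136.4 TPM against 88.6, 123.5 and 167.6 TPM, with 0.49 (SE 0.17, adjusted p = 0.141). COL1A2 had 15.5, 34.4 and 66.9 TPM against 21.7, 41.5 and 103 TPM, with 0.46 (SE 0.30, adjusted p = 0.434). All 3 ranges overlapped. LAMB1 had a log2 fold change of -0.52 (SE 0.20, adjusted p = 0.176, or 0.0269 without Myodin uncastrated boar 22, the 1 of 24 such fits that passed) and BGN of 0.37 (SE 0.13, adjusted p = 0.132).

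In the untreated animals alone, COL1A2 and COL15A1 had larger differences between uncastrated and castrated boars than in the fit with treatment as a covariate. No test compared the 2 fits. The 2 uncastrated boars had 49.1 and 75.8 TPM of COL1A2, above the 24.3, 15.5 and 21.2 TPM of the 3 castrated boars, and 4.57 and 3.41 TPM of COL15A1, above 0.89, 1.07 and 0.96 TPM. The groups did not overlap in either gene, but 2 and 3 animals can separate by chance. How many of all genes separated in this way was not counted. COL1A2 was then higher by 1.45 on the log2 scale (SE 0.25, adjusted p = 0.0356) and COL15A1 by 1.88 (SE 0.33, adjusted p = 0.0383), both by edgeR, and these were the 2 of 33 genes called, against 0.982% of 8449 genes. The median over the 33 genes was 0.42, against 0.07 with treatment as a covariate. Without castrated boar 15, which had 0 KDM5D reads (a fit chosen after seeing the data), 2 animals remained on each side, no gene of the 33 passed and 27 of 8418 genes did, at log2 fold changes of 1.54 for COL1A2 (adjusted p = 0.0922) and 1.85 for COL15A1 (adjusted p = 0.125).

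Sows against castrated boars (n = 9 and 8) showed none of 33 genes past edgeR's test, and none of the 8332 genes tested (0%). Without adjustment, 2 of 33 genes (6.06%), BGN and LOXL1, had a p under 0.05, against 9.88% of all genes. DESeq2 called 0 of 33, against 0.187% of all genes, with 3 (9.09%) at an unadjusted p under 0.05, against 8.04%. Values above 0 were found for 28 of 33 genes, against 52.5% of all genes. The median was 0.22, against 0.01 over all genes. THY1, with 5.08, 13.1 and 23.6 TPM in castrated boars and 5.42, 23.4 and 32.5 TPM in sows, had the largest log2 fold change, 0.69 (SE 0.37, adjusted p = 0.572). LOXL1, with 0.89, 1.58 and 3.01 TPM against 1.56, 2.23 and 4.67 TPM, had 0.56 (SE 0.27, adjusted p = 0.495), and COL15A1, with 0.89, 1.72 and 3.30 TPM against 0.74, 1.94 and 4.36 TPM, had 0.50 (SE 0.35, adjusted p = 0.675). BGN, with 75.9, 93.5 and 106.5 TPM against 84.4, 112.5 and 158.1 TPM, had 0.38 (SE 0.12, adjusted p = 0.443).

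The lowest values in sows belonged to THBS1 (-0.41, SE 0.46, adjusted p = 0.816; 10.4, 18.5 and 90.8 TPM in sows), LAMB1 (-0.23, SE 0.19, adjusted p = 0.719; 8.36, 15 and 20.3 TPM) and TAGLN (-0.21, SE 0.31, adjusted p = 0.881; 48.0, 70.3 and 177.2 TPM). All 3 overlapped with castrated boars. The sign of THBS1 and TAGLN was not stable, being 1.47 and 0.95 in the untreated animals alone. Of the 6 tested endothelial markers, all 6 had higher values in sows, 5 of them at an unadjusted p under 0.05 and none past the test. Also above 0 were 5 of 6 macrophage (median 0.14, 2 at an unadjusted p under 0.05), 4 of 4 bile duct (median 0.17) and 4 of 4 red blood cell markers (median 0.51). Smooth muscle markers were above 0 for 2 of 4 and fat cell markers for 0 of 2. None of these passed the test, and their part in the stromal values was not tested. The KDM5D counts went against the label in libraries 15, 16 and 18, which all enter this comparison; without these 3 none of the 33 genes passed either, against 0.169% of all genes, with 3 (9.09%) at an unadjusted p under 0.05, against 12.8%.

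Whether the steroids acted differently in uncastrated boars was tested as the treatment effect in uncastrated boars minus that in castrated boars and sows together. For Sustanon, none of 33 genes passed edgeR's test, against 0.0457% of 8754 genes, with 2 of 33 (6.06%) at an unadjusted p under 0.05, against 6.92%. These were COL5A1 (-0.74, adjusted p = 0.683) and COL15A1 (-1.43, adjusted p = 0.701). DESeq2 called 0 of 33, against 0.325% of all genes, with 3 (9.09%) at an unadjusted p under 0.05, against 5.74%. The median difference of the Sustanon effect was -0.27 over the 33 genes and 0.00 over all genes, with 27 of 33 below 0 and the highest value that of THY1 (0.95, adjusted p = 0.859). For Myodin, none of 33 passed, against 0.0914% of all genes, but 8 of 33 (24.2%) had an unadjusted p under 0.05, against 12%. DESeq2 called 2 of 33 (ELN and COL15A1), against 0.948% of the 9706 genes to which it gave an adjusted p, and limma on log2(TPM + 1) called 1 (ELN), against 0.149% of 8754 genes. The median difference of the Myodin effect was -0.45 over the 33 genes and 0.02 over all genes. Of the 33, 25 were below 0, while 51.9% of all genes were above 0. The highest value was that of LRAT (0.54, adjusted p = 0.682). Both differences rest on the same 2 untreated uncastrated boars. On the log2(TPM + 1) scale the median difference of the Myodin effect was -0.69, where the median of all genes was itself at -0.14. Of the 6 tested endothelial markers, 5 were below 0 in the same difference, with a median of -0.69, 2 at an unadjusted p under 0.05 and none past the test. They summed to 71.7 to 98.75 TPM in untreated and 42.8 to 84.8 TPM in Myodin uncastrated boars, and to 52.7 to 104 TPM and 70.7 to 109 TPM in the other animals. Of the macrophage markers 5 of 6 and of the leukocyte markers 4 of 5 were above 0, with medians of 0.25 and 0.92. Of these, 2 leukocyte and 0 macrophage markers had an unadjusted p under 0.05. Red blood cell markers were above 0 for 0 of 4 (median -1.14) and fat cell markers for 0 of 2 (median -0.86). Mesothelial markers were above 0 for 0 of 2 (median -4.73, 1 at an unadjusted p under 0.05). Hepatocyte markers were above 0 for 3 of 5 (1 at an unadjusted p under 0.05), and bile duct and smooth muscle markers for 3 of 4 each. None of these passed the test. The part of these cells was not tested.

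ELN, on chromosome 3 from 11214194 to 11245891, had 3.82 and 5.28 TPM in the 2 untreated uncastrated boars and 1.49, 0.34 and 0.75 TPM in the 3 with Myodin. The other animals had 1.21 to 2.49 TPM untreated and 1.09 to 3.77 TPM with Myodin. The uncastrated boars thus did not overlap between the treatments, with untreated high and Myodin low, while the other animals overlapped. Groups of 2 and 3 animals can separate by chance, and the share of all genes that did so was not counted. The difference of the Myodin effect was -2.71 (SE 0.59, interval -3.95 to -1.46), with an adjusted p of 0.0575 by edgeR and 0.00501 by DESeq2. The Myodin libraries of uncastrated boars held 25, 5 and 12 ELN reads. With 1 library left out, ELN passed by edgeR in 3 of 24 fits, with an adjusted p up to 0.370 in the others. It passed without Myodin castrated boar 8 (adjusted p = 0.0484), Myodin uncastrated boar 22 (adjusted p = 0.0100) or untreated sow 16 (adjusted p = 0.0482).

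COL15A1, on chromosome 1 from 240718128 to 240829188, followed the same order. It had 4.57 and 3.41 TPM in untreated and 1.27, 0.60 and 1.79 TPM in Myodin uncastrated boars, and 0.89 to 2.97 TPM untreated and 0.74 to 4.04 TPM with Myodin in the other animals. Its difference was -2.47 (SE 0.63, adjusted p = 0.118 by edgeR and 0.0260 by DESeq2). HSPG2 went from 42.2 and 38.5 TPM in untreated to 31.5, 20.3 and 22.5 TPM in Myodin uncastrated boars, a difference of -0.81 (SE 0.27, adjusted p = 0.234). With 1 library left out, HSPG2 passed by edgeR in 1 of 24 fits, without uncastrated boar 22 (adjusted p = 0.0336). LOXL1, at -1.49 (SE 0.57, adjusted p = 0.298), and FBLN5, PDGFRB, LAMA4 and MMP2, between -1.22 and -0.79, were the others of the 8.

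**Figure D3:**
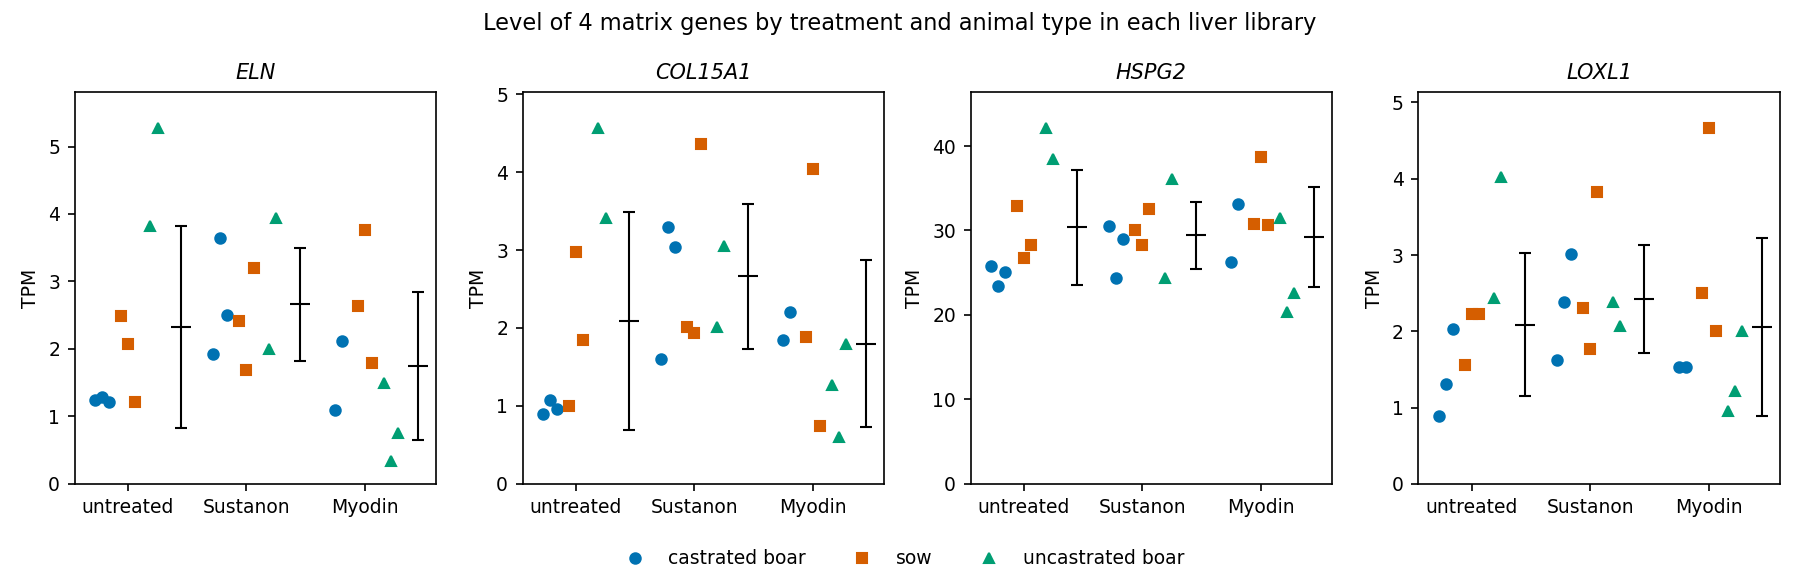
Level (vertical axis, TPM from 0) of ELN, COL15A1, HSPG2 and LOXL1 in each of the 24 libraries by treatment (horizontal axis), with symbols for the labelled animal type and the mean ± SD of 8 libraries in black. The 2 untreated uncastrated boars (3.82 and 5.28 TPM of ELN) lie above the 3 Myodin uncastrated boars (1.49, 0.34 and 0.75 TPM).

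Taken as a set, the 33 genes were summarised by averaging the z-scores of log2 CPM over genes and by summing their TPM, with no test. The mean z-score was 0.25 ± 0.38 in Sustanon, -0.19 ± 0.56 in Myodin and -0.06 ± 0.55 in untreated libraries (SD, n = 8 each), and the summed level was 1037 ± 116, 869 ± 173 and 894 ± 214 TPM. These ranges overlapped. By animal type it was -0.15 ± 0.47 in castrated boars, 0.23 ± 0.49 in sows and -0.12 ± 0.56 in uncastrated boars. The lowest groups by mean z-score were Myodin uncastrated boars (-0.62 ± 0.28, n = 3) and untreated castrated boars (-0.50 ± 0.26, n = 3), and the highest were Sustanon sows (0.34 ± 0.38, n = 3) and untreated uncastrated boars (0.34 ± 0.30, n = 2). The order depended on the scale. With z-scores of log2(TPM + 1), untreated uncastrated boars had 0.61 and Sustanon sows 0.17, and by mean summed level the lowest group was untreated castrated boars (694 TPM, against 811 TPM in Myodin uncastrated boars), with Sustanon sows at 1005 TPM and Sustanon uncastrated boars highest at 1063 TPM. The 2 untreated uncastrated boars, at 1001 and 1093 TPM, lay above the 3 untreated castrated boars, at 632 to 766 TPM. The 3 untreated libraries with KDM5D counts against the label were at -0.43 (castrated boar 15), 0.61 (sow 16) and -0.64 (sow 18).

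**Figure D4:**
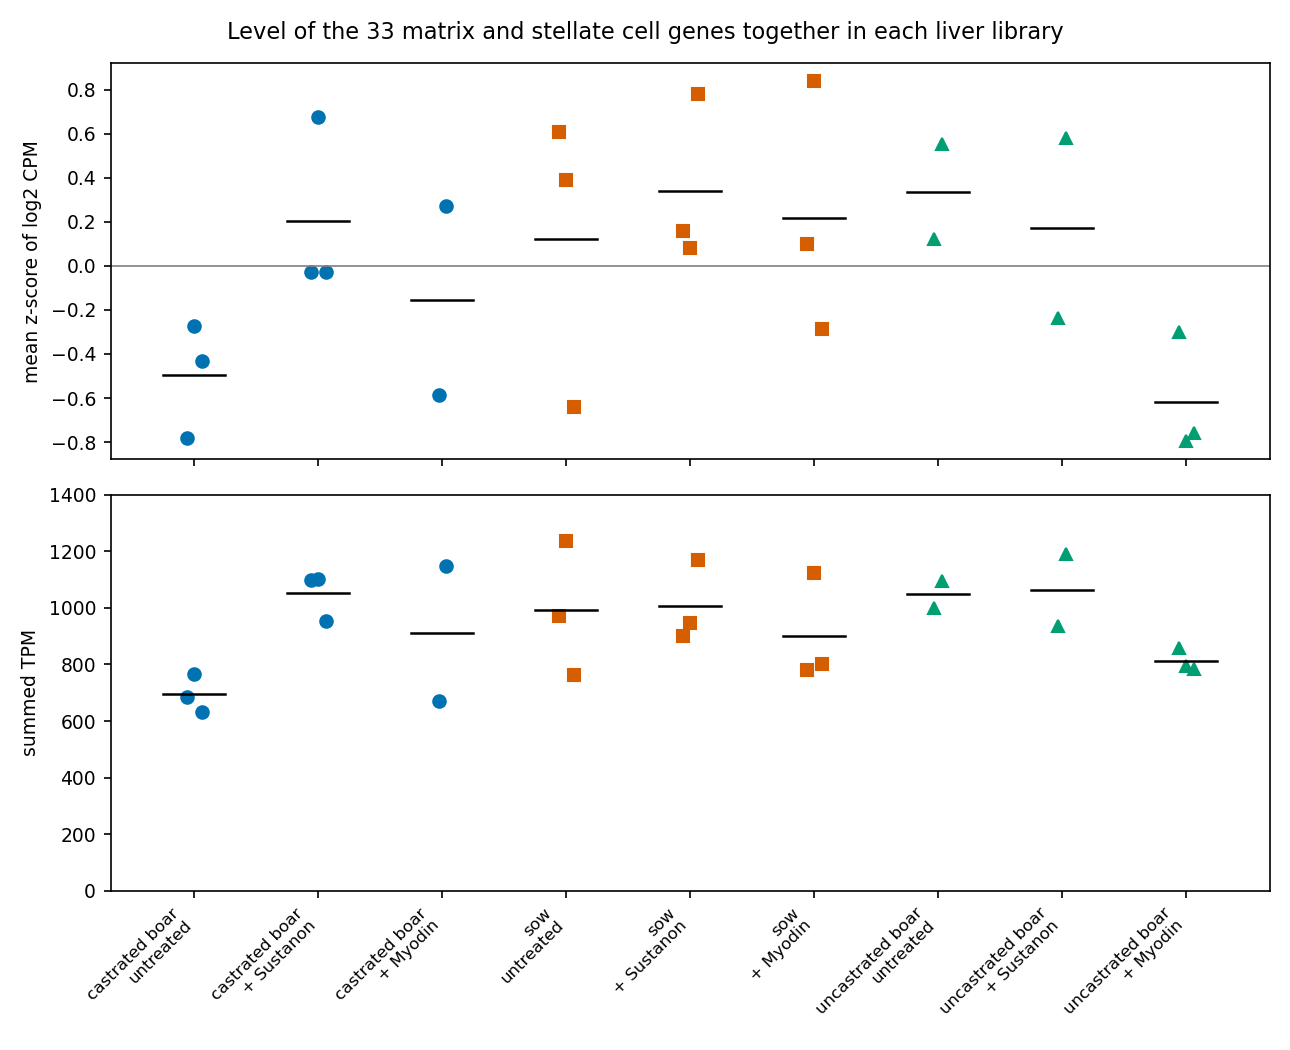
Mean z-score of log2 CPM (upper vertical axis) and summed TPM (lower vertical axis, from 0) of the 33 genes in each library, by group of animal type and treatment (horizontal axis), with lines for the group means. Untreated castrated boars and Myodin uncastrated boars are the 2 lowest groups by mean z-score (-0.50 and -0.62), and single groups of 2 or 3 animals spread widely.

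Across the 24 libraries the genes did not vary as 1 block. Of 528 pairs, 79.5% had a Pearson correlation of log2 CPM above 0, with a median r of 0.23, or 0.26 after the mean of each of the 9 groups was taken out. These correlations describe libraries that share groups and normalization, and carry no p. The 9 pairs above 0.8 were COL1A2 with DCN (0.87), COL14A1 with FBN1 (0.87) and with LOX (0.86), TAGLN with THBS1 (0.85), ELN with FBLN5 (0.84) and with COL15A1 (0.82), LOX with LAMA4 (0.82) and with FBN1 (0.81), and PDGFRB with HSPG2 (0.81). ELN, LOX and FBN1 were the most like the mean of the other 32 genes, each with r = 0.86. CCN1 (0.10) and LAMB1 (0.10) were among the genes least like it, TIMP3 had 0.33, and LRAT (-0.04) and TGFB1 (-0.06) were the lowest. This order differed once group means were taken out: the mean r with the other 32 genes went from 0.05 to 0.23 for LAMB1, from 0.05 to -0.09 for CCN1, which was then the lowest, from -0.02 to 0.13 for LRAT and from -0.03 to 0.09 for TGFB1. CCN1 and TIMP3 correlated with each other (0.64, or 0.42 within groups), and LAMB1 went against both (-0.55 with CCN1 and -0.53 with TIMP3, or -0.32 and 0.04 within groups).

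**Figure D5:**
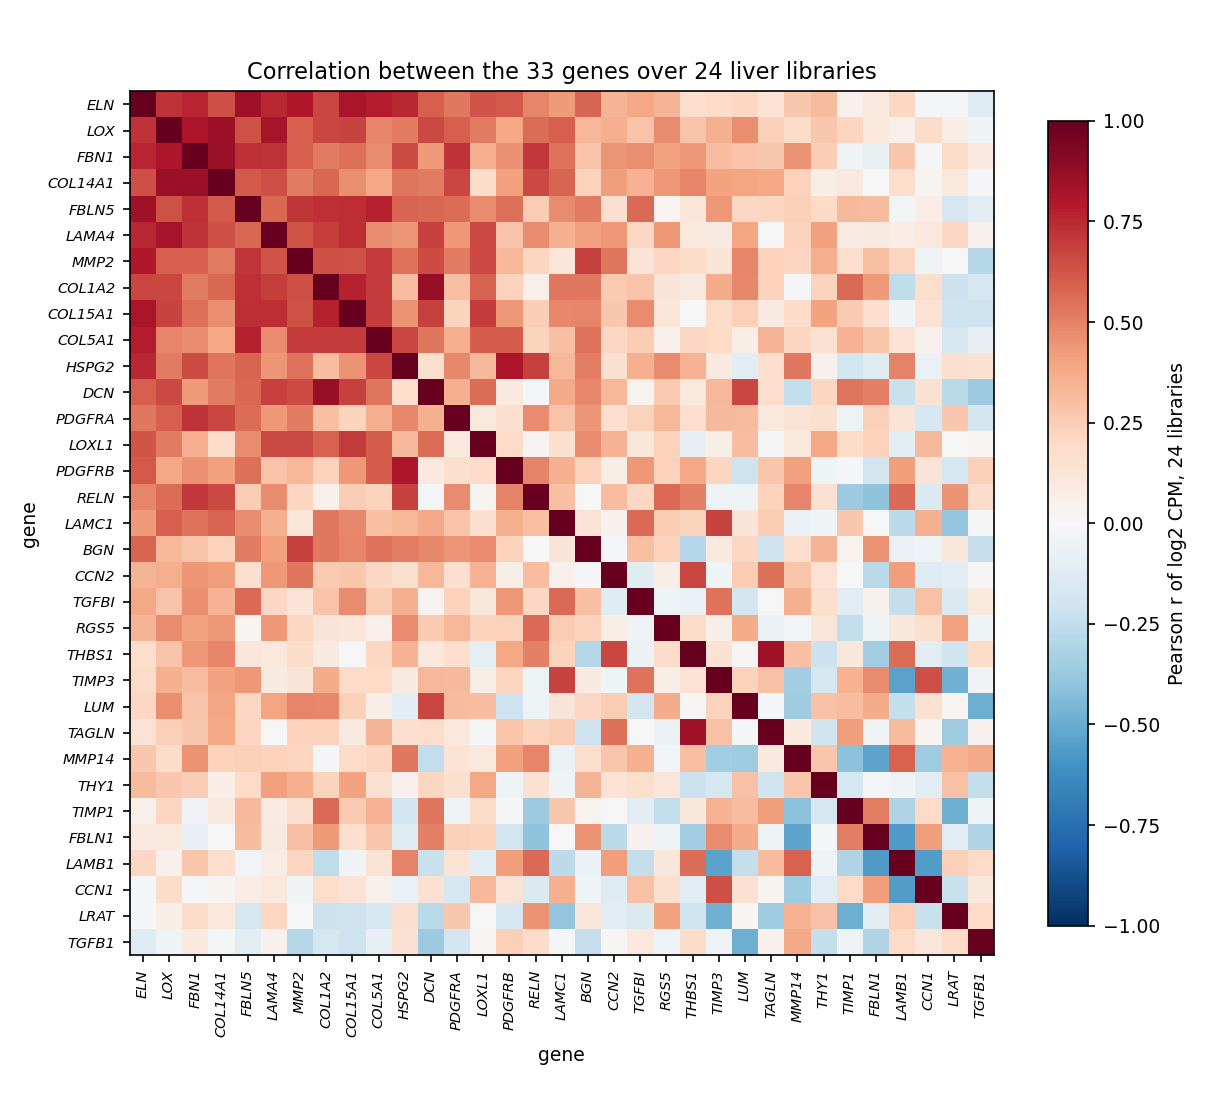
Pearson correlation of log2 CPM over 24 libraries between each pair of the 33 genes, on both axes in order of their correlation with the mean of the others, with red above and blue below 0. ELN, LOX and FBN1 (0.86 each) stand at the start of this order, and CCN1, LAMB1, LRAT and TGFB1 at its end.

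The genes outside the set whose log2 CPM was most like its mean z-score were LTBP1 (r = 0.87), PTPN13 and SVEP1 (0.83), LTBP3 (0.82), ECM2 (0.81), COL16A1 (0.80), CLMP (0.78), ANTXR1 and WNT9A (0.77) and ADAMTS2 (0.76), each over 24 libraries. LTBP1 and LTBP3 encode proteins that hold latent TGF-beta in the matrix, ADAMTS2 trims procollagen, and COL16A1 is another collagen.

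Of the related genes, 9 of 15 listed for collagen folding and processing were tested. PLOD1, a lysyl hydroxylase of collagen, fell with Sustanon by 0.57 on the log2 scale, from 71.1 ± 11.7 to 48.4 ± 13.4 TPM (SD, n = 8 each, edgeR adjusted p = 0.0380), and the other 8 did not pass the test. That was 1 of 9, and 1 of 6 tested matrix receptors passed, against 5.07% of all genes. Without adjustment, 1 of 9 and 3 of 6 had a p under 0.05, against 19.6% of all genes. The receptor SDC2, a cell surface heparan sulfate proteoglycan that is abundant in liver, rose by 0.39, from 512 ± 80.3 to 698 ± 136 TPM (SD, n = 8 each, edgeR adjusted p = 0.0383). Without untreated 15, 16 and 18 neither gene passed edgeR's test, with PLOD1 at -0.60 (adjusted p = 0.153) and SDC2 at 0.39 (adjusted p = 0.154). With 1 library left out, PLOD1 passed in 12 and SDC2 in 14 of 24 fits, and each passed in 6 of 11 other settings, with PLOD1 lost by limma on log2(TPM + 1) (adjusted p = 0.0585) and SDC2 in castrated boars and sows alone (adjusted p = 0.110). With Sustanon, no gene of the 16 tested in the TGF-beta pathway passed by edgeR, with 1 at an unadjusted p under 0.05, a median of -0.01 and 8 above 0. None of 6 other matrix proteases and inhibitors passed, with a median of 0.09. With Myodin, none of these 4 lists held a gene that passed. Without adjustment, 3 of 6 matrix receptors and 1 of 6 other matrix proteases and inhibitors had a p under 0.05 with Myodin, against 7.21% of all genes. This was 0 of 9 for collagen folding and processing and 0 of 16 for the TGF-beta pathway.

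Markers of other liver cells were counted in the comparison of Sustanon with untreated animals, where none of them passed the test. Of the genes tested, 4 of 5 hepatocyte, 1 of 4 bile duct, 2 of 6 endothelial, 2 of 6 macrophage and 0 of 5 leukocyte markers were above 0, as were 0 of 4 smooth muscle (median log2 fold change -0.56), 0 of 4 red blood cell and 0 of 2 fat cell markers. The summed level of the hepatocyte markers was 111602 to 166453 TPM in untreated and 128206 to 186522 TPM in Sustanon libraries. The smooth muscle markers summed to 9.10 to 49.1 TPM in untreated, 11.35 to 25.6 TPM in Sustanon and 6.95 to 42.1 TPM in Myodin libraries. The mesothelial and skeletal muscle markers were near 0, at no more than 2.30 and 3.10 TPM in any library. Their part in the stromal results was not tested.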

How the data were processed

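Liver RNA of 24 pigs was sequenced from stranded poly-A libraries as paired-end reads of 75 nt. The authors used FastQC, Skewer for trimming and STAR 2.5 for alignment to Sscrofa11.1, per their methods and the submitters' processing notes; the counting tool and annotation release are not given in the sources used here. The deposited counts are reads per gene without normalization, and the authors also deposited log2(TPM + 1) values, which were converted back to TPM. Of 13463 genes, 3779 have no symbol. Positions are from RefSeq, matched by symbol (CCN1 and CCN2 by their older symbols).

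Counts were filtered with filterByExpr, normalized with TMM and tested with the quasi-likelihood test of edgeR 4.0.16 in R 4.3.3, two-sided, with Benjamini-Hochberg adjustment over all genes tested. The design was treatment alone, animal type with treatment, or 6 groups of treatment by uncastrated boar or not. CPM used TMM, and log2 CPM a prior count of 2. Intervals are 95% intervals from the SE and the residual degrees of freedom. Alternatives were DESeq2 1.42.0, limma 3.58.1 on log2(TPM + 1) and log2(TPM + 0.1), RLE normalization, no filter, other sets of animals or covariates, and each library left out. The scripts were tested on simulated data.

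The 52 genes and the other lists were chosen with earlier results of these data known. Full values were given for genes past the adjusted p threshold of 0.05, for the 3 highest and 3 lowest log2 fold changes (mean log2 CPM of at least 1) in each of the 5 comparisons between treatments or animal types, and for the 3 most abundant genes; other genes were named for their role. The header of the column of Sustanon sow 6 carries the covariate number of another group, and its label was kept. P-values measure the spread between animals.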

Additional observations from a re-analysis of the deposited data

Results flagged for a closer look

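Dixon's test of the highest and lowest library was run on log2 CPM in 102 groups, and chance alone marks about 1 in 20 groups. It marked 2, both among the 8 untreated libraries. CCN1 in untreated castrated boar 13 was the lowest, at 3.95 on the log2 CPM scale with the next library at 4.77, a gap that was 0.599 of the range. CCN2 in untreated sow 17 was the highest, at 7.99 with the next at 6.12, a gap of 0.633 of the range.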

How the results depend on the processing

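Of the 33 genes, 1 passed for Sustanon against untreated without untreated castrated boar 15 and 0 without untreated 15, 16 and 18; the cause of these and the other changes below was not tested. For Sustanon against Myodin and for uncastrated against castrated boars, DESeq2 called 1, and in untreated animals alone the latter gave 2, with a median of 0.42 (0.41 without castrated boar 15, added after seeing the data). For the difference of the Myodin effect, DESeq2 called 2 and limma 1 under each pseudocount or without a filter. Leaving out each library in turn gave 1 to 4 genes for Sustanon against untreated, 0 to 1 for Sustanon against Myodin and for uncastrated against castrated boars, 0 to 2 for the difference of the Myodin effect, and 0 otherwise. The medians were then 0.08 to 0.21, 0.19 to 0.32, -0.02 to 0.18, -0.15 to 0.00 for Myodin and 0.17 to 0.27 for sows.

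The signs that turned belonged to genes that passed no test there. TAGLN with Sustanon was -0.0065 without a filter, -0.060 without boar 15 and -0.038 with animal type as covariate, and -0.12 to 0.22 with 1 library left out, where BGN was -0.018 to 0.14. THBS1 for Sustanon against Myodin was 0.054 by limma (0.064 with a pseudocount of 0.1), and -0.55 to 0.45 with 1 library left out. CCN2 for uncastrated against castrated boars was 0.25 in untreated animals without boar 15. For sows, THBS1 was 1.47 and TAGLN 0.95 in untreated animals, 1.51 and 0.87 there without boar 15, where THY1 was -0.13, and THBS1 was -0.64 to 0.16 and TAGLN -0.39 to 0.0094 with 1 library left out. THBS1 for uncastrated against castrated boars was -0.85 without Myodin castrated boar 9 and -0.36 in untreated animals.

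Over all genes, calls for Sustanon against untreated went from 420 to 637 by DESeq2, 255 by limma without a filter, 272 without untreated boar 15 and 0 without untreated 15, 16 and 18, and to 198 (without Sustanon uncastrated boar 19) to 613 (without Sustanon castrated boar 1). Those for Sustanon against Myodin went from 55 to 276 by DESeq2, 390 with animal type as covariate, 339 without uncastrated boars, 36 without a filter, 29 without untreated 15, 16 and 18, 9 with both groups alone, 2 by limma without a filter, and 0 (without Sustanon castrated boar 2, with 1285 at an unadjusted p under 0.05) to 541 (without Myodin uncastrated boar 23). Those for uncastrated against castrated boars went from 160 to 370 by DESeq2, 83 in untreated animals, 27 there without boar 15, 3 without treatment as covariate, and 84 (without Myodin uncastrated boar 23) to 306 (without Myodin uncastrated boar 22). For sows, with 0 calls, DESeq2 gave 22 and the fit without untreated 15, 16 and 18 gave 14. For Myodin against untreated, also 0, DESeq2 gave 1 and the fit without uncastrated boars 8. Those for the difference of the Myodin effect went from 8 to 92 by DESeq2, 13 by limma, 18 by limma without a filter, 3 without untreated 15, 16 and 18, 1 without sows, and 2 (without Myodin uncastrated boar 24) to 192 (without Myodin uncastrated boar 22). Those for the difference of the Sustanon effect went from 4 to 36 by DESeq2, 7 by limma, 18 by limma without a filter, 2 without untreated boar 15 or without untreated 15, 16 and 18, 0 without sows (694 at an unadjusted p under 0.05), and 0 to 6 with 1 library left out. No paired analysis was possible because the groups share no animal number.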
